A study of Mus musculus with 11 samples.

Results

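The mitochondrial ribosomal protein genes of the mouse are 78 of the 21883 protein-coding genes on chromosomes 1 to 19, X and Y. They were taken as the genes of the mm10 annotation whose symbol starts with Mrpl or Mrps followed by a digit. Of these, 49 are Mrpl genes and 29 are Mrps genes. They lie on 17 chromosomes, with at most 11 on a single chromosome (chromosome 11), and their spans run from 825 to 121712 bases. A gene was counted as marked in a library when a peak overlapped the window of 1000 bases on either side of an end of its span. By that rule 69 of the 78 genes were marked by H3K4me3 in WT, and the other 7690 protein-coding genes marked in WT were the genes they were set beside.

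Mitochondria carry their own ribosome, which translates the few proteins encoded by mitochondrial DNA, all of them parts of the oxidative phosphorylation machinery. Its RNAs are made inside the organelle, while its proteins are encoded in the nucleus, made in the cytosol and imported, so that every one of them depends on a nuclear promoter. Mrpl genes are named for the large subunit, which forms the peptide bonds, and Mrps genes for the small subunit, which reads the messenger RNA. Some of these proteins descend from ribosomal proteins of the bacterial ancestor, and others were added later and are found in mitochondria only. The promoters of such housekeeping genes are usually rich in CG dinucleotides and carry H3K4me3, the trimethyl mark that the SET1 and MLL complexes place on lysine 4 of histone H3 at active promoters. WDR5 is a scaffold subunit of these complexes, and P53 is a stress-activated transcription factor. Pluripotent stem cells are known for relying largely on glycolysis, and use of the mitochondria grows as they differentiate.

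The measurements were peak lists from CUT&RUN, in which an antibody on chromatin directs a nuclease to release the bound DNA for sequencing, on mouse embryoid bodies at day 2. The genotypes were Wdr5 knockout (KO), Wdr5 and p53 double knockout (DKO) and wild type (WT). All 3 came from embryonic stem cells with GFP knocked into the Rx gene, differentiated by the SFEBq method in GMEM with 5% KSR. In all 3, doxycycline was withdrawn at day 0 and 2% matrigel was given at day 1, and 2 µg of antibody went with 2 M (mega) cells. The labels state neither what doxycycline controlled nor how many clones each knockout line stands for. H3K4me3 had 1 library in each genotype, with 22.3 M fragments and 918 peaks in KO, 43.2 M and 6418 in DKO, and 34.2 M and 9836 in WT. WDR5 and P53 had 2 lists each in DKO and in WT, labelled rep1 and rep2 but counted as 1 library per group. No KO list of either was analysed here. With 1 library in each group no comparison between genotypes has a replicate check, and none was tested. The intervals given are 95% Wilson intervals, or are built from them for a difference of shares, and cover counting error only. H3K4me3 at the ends of the targeted genes had a fold enrichment of 4.66 in KO, 6.85 in DKO and 8.07 in WT at Wdr5, and of 4.04, 3.36 and 3.92 at Trp53 in the same order, which does not check the deletions. Among marker genes of cell types, WT H3K4me3 was called at 5 of 7 pluripotency genes and 3 of 8 anterior neural genes (Otx2, Six6 and Zic2, with none at Rax). It was called at 1 of 8 mesoderm and endoderm genes, 2 of 7 trophoblast genes and 1 of 7 fibroblast genes. The share over protein-coding genes other than members was 35.3%, and no difference from it was tested.

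The promoters of 6 members are shown from RefSeq, GRCm38.p6, each with 250 bases before the annotated start and 50 after it, 5′ to 3′ along the gene. They were picked to show the highest WT peak (Mrpl35), a gene called in all 3 genotypes with repeated NRF1 words (Mrpl32), the gene called in all 3 that was not highest in WT (Mrpl49), the promoter shared by a pair of members (Mrps11, with Mrpl46), a start that lies inside its gene span (Mrpl22) and a gene with no peak in any list (Mrpl3). Capitals mark the words TGCGCA (core of NRF1 sites), CCGGAAG (ETS factors) and AAGATGG (YY1) on either strand.
Mrpl35 promoter, chr6:71823735-71824034, minus strand: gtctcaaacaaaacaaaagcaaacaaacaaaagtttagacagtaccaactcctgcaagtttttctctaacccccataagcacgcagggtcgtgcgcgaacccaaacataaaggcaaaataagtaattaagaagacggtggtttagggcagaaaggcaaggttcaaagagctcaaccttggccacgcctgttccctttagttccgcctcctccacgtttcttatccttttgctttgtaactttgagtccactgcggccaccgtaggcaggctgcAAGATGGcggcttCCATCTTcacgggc
Mrpl32 promoter, chr13:14612988-14613287, minus strand: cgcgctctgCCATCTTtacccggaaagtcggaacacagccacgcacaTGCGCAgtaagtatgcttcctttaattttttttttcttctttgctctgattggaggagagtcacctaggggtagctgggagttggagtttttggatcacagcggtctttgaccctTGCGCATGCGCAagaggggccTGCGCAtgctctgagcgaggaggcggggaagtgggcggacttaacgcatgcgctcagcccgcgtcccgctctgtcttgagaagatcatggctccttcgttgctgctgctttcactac
Mrpl49 promoter, chr19:6057706-6058005, minus strand: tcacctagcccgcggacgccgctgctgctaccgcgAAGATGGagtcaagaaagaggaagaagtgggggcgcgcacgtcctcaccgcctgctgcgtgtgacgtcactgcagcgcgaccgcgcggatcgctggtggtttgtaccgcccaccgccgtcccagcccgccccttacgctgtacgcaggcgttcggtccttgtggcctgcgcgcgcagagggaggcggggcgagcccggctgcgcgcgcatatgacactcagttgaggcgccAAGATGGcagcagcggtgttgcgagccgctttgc
Mrps11 promoter, chr7:78782881-78783180, plus strand: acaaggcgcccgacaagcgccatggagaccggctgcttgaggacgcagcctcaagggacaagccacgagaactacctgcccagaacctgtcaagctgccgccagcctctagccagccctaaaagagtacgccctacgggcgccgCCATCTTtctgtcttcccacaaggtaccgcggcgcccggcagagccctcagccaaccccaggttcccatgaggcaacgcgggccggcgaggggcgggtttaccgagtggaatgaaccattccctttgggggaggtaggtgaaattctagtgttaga
Mrpl22 promoter, chr11:58171414-58171713, plus strand: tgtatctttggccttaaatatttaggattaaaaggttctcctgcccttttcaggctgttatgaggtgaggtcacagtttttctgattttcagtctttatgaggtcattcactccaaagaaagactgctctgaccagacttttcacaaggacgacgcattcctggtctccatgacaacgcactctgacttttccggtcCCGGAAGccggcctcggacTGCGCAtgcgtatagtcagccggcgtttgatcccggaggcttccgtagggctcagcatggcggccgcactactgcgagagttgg
Mrpl3 promoter, chr9:105053018-105053317, plus strand: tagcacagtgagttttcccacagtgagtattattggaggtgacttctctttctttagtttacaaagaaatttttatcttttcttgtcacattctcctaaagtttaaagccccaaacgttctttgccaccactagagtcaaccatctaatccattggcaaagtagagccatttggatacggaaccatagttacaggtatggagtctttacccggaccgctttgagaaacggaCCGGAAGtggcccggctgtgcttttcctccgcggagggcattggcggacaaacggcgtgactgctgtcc

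A promoter entry was held for 69 of the 78 members and for 17422 other genes. The NRF1 word, which reads the same on both strands, occurred in 21 of the 69 member promoters (30.4%, 20.8 to 42.1) and in 10.0% of the other promoters. NRF1 is the nuclear factor best known for binding genes of the respiratory chain. The ETS word occurred in 24 (34.8%, 24.6 to 46.6) and in 11.8% of the others. The YY1 word, which holds the letters ATG, occurred in 13 (18.8%, 11.4 to 29.6) and in 6.30% of the others. Set beside the promoters of other genes marked in WT, the shares were 28.6% of 63 marked members and 16.3% of 6269 other marked genes for NRF1, 33.3% and 22.1% for ETS, and 20.6% and 8.37% for YY1. Of the 69 promoters, 26 held none of the 3 words, 29 held 1 of them, 13 held 2 and 1 held all 3. The core word of SP factors, GGGCGG, was less frequent in the marked members, at 52.4% against 70.1% of the other marked genes, and their median GC content was 58.3% against 62.0%. The E-box CACGTG, also a palindrome, occurred in 7.94% and 10.7%, and TATAAA in 6.35% and 5.73%. The 6 words were searched on both strands, and different words overlapped in 1 promoter only (Mrpl17, the SP word with the ETS word). A match describes these letters and not a bound site.

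Most mitochondrial ribosomal protein genes carried H3K4me3 in WT. The 69 marked members made 88.5% of the 78 (79.5 to 93.8), where 35.3% of the 21805 other protein-coding genes were marked. The share was 43 of 49 Mrpl genes (87.8%) and 26 of 29 Mrps genes (89.7%). Fold enrichment, the authors' ratio of the fragments over a peak's summit to those around it in that library, had a median of 5.22 over the highest peak of each marked member (middle 50% 4.58 to 6.22, range 3.35 to 10.1). Over the other marked genes its median was 4.71 (middle 50% 4.08 to 5.51). The peaks were also wider, with a median of 720 bases at members and 596 bases at other marked genes.

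**Figure D1:**
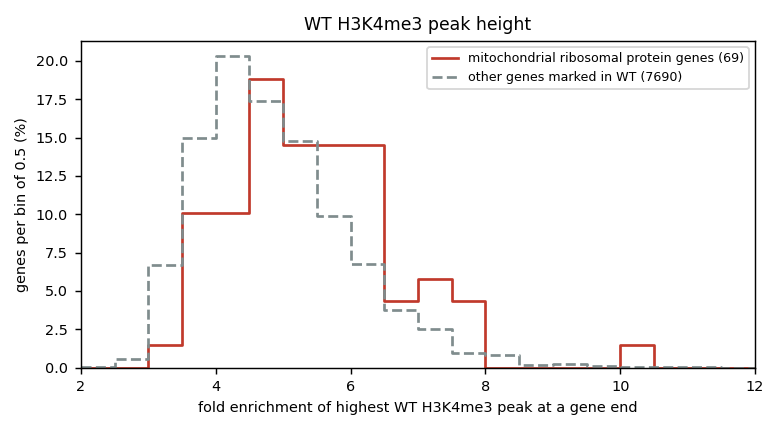
Share of genes (vertical axis, percent per bin of 0.5) by the fold enrichment of their highest WT H3K4me3 peak at a gene end (horizontal axis), for the 69 marked members (solid) and 7690 other marked genes (dashed). The members' line lies to the right, with medians of 5.22 for members and 4.71 for other genes, and the member at 10.1 is Mrpl35.

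Mrpl genes lay above Mrps genes in WT, with a median of 5.53 over 43 genes against 4.81 over 26 Mrps genes. The 5 highest members were Mrpl35 (10.1), whose protein belongs to the bacterial L35 family of the large subunit, Mrpl46 and Mrps11 (7.90 each), Mrpl42 (7.50) and Mrpl12 (7.46), which encodes the L7/L12 stalk protein at the factor binding site. Mrpl46 and Mrps11 have the same value because they share 1 peak: they are transcribed away from each other from starts 42 bases apart, a pair in which 1 gene serves each subunit. The 5 lowest were all Mrps genes, namely Mrps26 (3.35), Mrps17 and Mrps33 (3.57 each), Mrps16 (3.71) and Mrps25 (3.81). Mrps16 and Mrps17 are members with a bacterial counterpart, and the other 3 of the lowest are not.

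**Figure D2:**
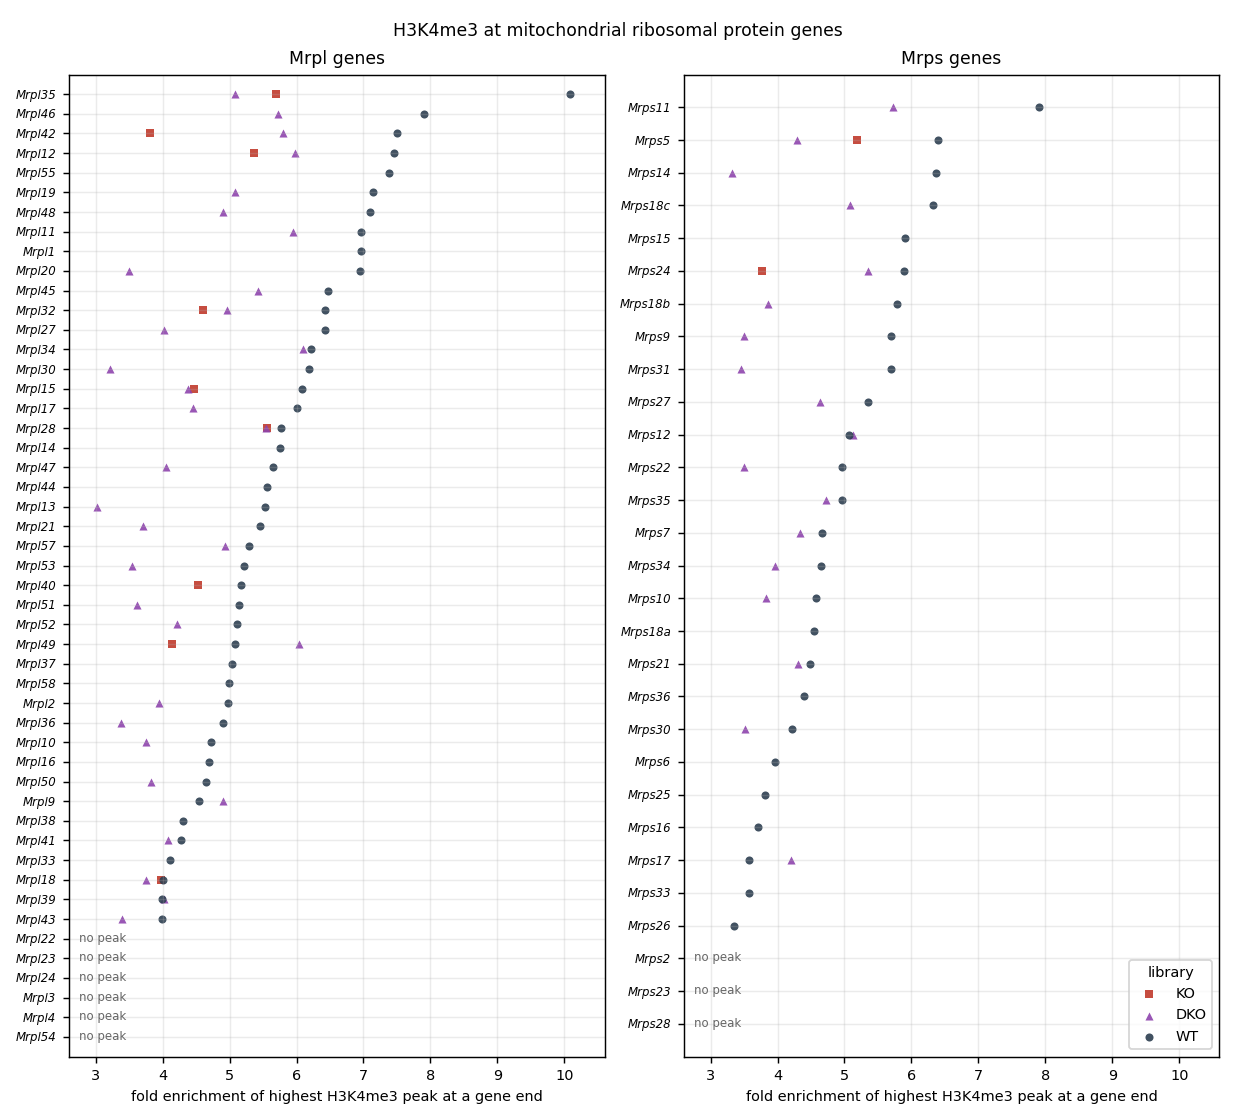
Fold enrichment (horizontal axis) of the highest H3K4me3 peak at an end of each Mrpl gene (left) and Mrps gene (right), with KO as squares, DKO as triangles and WT as circles, 1 library each, sorted by WT. KO squares are present in 11 rows and DKO triangles in 51, and 9 genes have no peak.

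In KO, H3K4me3 was called at 11 of the 69 members marked in WT (15.9%, 9.14 to 26.3), beside 8.92% of the other marked genes (8.30 to 9.58). Over all 78 members the share was 14.1%, beside 3.16% of the other protein-coding genes. Of the 11, 9 were Mrpl genes (of 43 marked, 20.9%) and 2 were Mrps genes (of 26, 7.69%), and the intervals of the subunits overlapped (11.4 to 35.2 and 2.14 to 24.1). The KO library was the shallowest and its list the shortest, and the part of depth in the count was not tested. When each H3K4me3 list was shortened to its 918 peaks with the lowest q, 17 members were marked in WT, and KO held 5 of them (29.4%), beside 29.9% of the other marked genes. The members' share exceeded that of the other marked genes by 7.02 percentage points, but by 4.14 with peaks of −log10 q of at least 5 and by 1.06 with only the upper 50% of peaks by fold enrichment.

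The fold enrichments of the 11 genes follow, on scales that are each library's own and are not matched between lists. Mrpl35 had 5.70 in KO, 5.08 in DKO and 10.1 in WT. Mrpl28, of the bacterial L28 family, had 5.56 in KO, 5.55 in DKO and 5.77 in WT. Mrpl12 had 5.37 in KO, 5.98 in DKO and 7.46 in WT. Thus the 3 highest members in KO ranged widely in WT. Mrps5, whose protein belongs to the family at the messenger RNA entry, had 5.19 in KO, 4.29 in DKO and 6.39 in WT. Mrpl32, whose protein is cut to its mature form by the m-AAA protease, had 4.60 in KO, 4.97 in DKO and 6.42 in WT. Mrpl15, of the bacterial L15 family, had 4.48 in KO, 4.38 in DKO and 6.08 in WT. These 3 were likewise highest in WT. Mrpl49, found in mitochondria only, had 4.15 in KO, 6.03 in DKO and 5.08 in WT, and was the only gene called in all 3 that was highest in DKO. Mrpl18, of the bacterial L18 family, had 3.97 in KO, 3.75 in DKO and 4.01 in WT, the lowest WT value of the 11. Mrpl42, also found in mitochondria only, had 3.81 in KO, 5.79 in DKO and 7.50 in WT. Mrps24 had 3.77 in KO, 5.35 in DKO and 5.90 in WT. Mrpl40 had 4.52 in KO, no peak in DKO and 5.17 in WT, and was the only member called in KO and not in DKO. Of the 10 genes called in all 3, 9 had their highest value in WT.

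In DKO, the mark was called at 51 of the 69 marked members (73.9%, 62.5 to 82.8), beside 59.6% of the other marked genes (58.5 to 60.7). The difference was 14.3 percentage points, and 8.53 and 6.13 under the same limits on q and fold enrichment. Over all 78 members the share was 65.4%, beside 22.7% of the other protein-coding genes. It was called at 33 of 43 marked Mrpl genes (76.7%) and at 18 of 26 marked Mrps genes (69.2%). The fold enrichments in DKO ran from 3.02 (Mrpl13) to 6.09 (Mrpl34), with a median of 4.22 at members and 4.03 at the other genes called. At 46 of the 51 members (90.2%) the DKO value was below the WT value, as it was at 83.4% of the 4585 other genes called in both lists. The 5 exceptions were Mrpl9, Mrpl39, Mrpl49, Mrps12 and Mrps17, of which Mrps12 belongs to the protein family that guards decoding accuracy. Each value is that of the highest peak at either end in its own list, so the DKO and WT peaks of a gene can differ. Those of Mrpl2, Mrpl36, Mrpl39 and Mrps35 did not overlap. The log2 ratio of the DKO to the WT value had a median of -0.33 at members (range -0.99 to 0.25) and -0.30 at the other genes. The DKO library was the deepest, so these ratios between lists of unequal depth are a description only.

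Of the 69 marked members, 10 were thus called in KO and DKO, 41 in DKO and not KO, 1 in KO and not DKO and 17 in neither. The 10 genes made 90.9% of the members called in KO and 19.6% of those called in DKO. Among other protein-coding genes, those called in both made 93.9% of the genes called in KO and 13.1% of those called in DKO. No member was marked in a knockout without being marked in WT (0 of 9), where 2.58% of the other genes unmarked in WT were. A count of 0 of 9 allows a share of up to 33.3%, so it does not set the members apart from that value.

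The 18 members marked in WT with no DKO peak were Mrpl1, Mrpl14, Mrpl16, Mrpl33, Mrpl37, Mrpl38, Mrpl40, Mrpl44, Mrpl55, Mrpl58, Mrps6, Mrps15, Mrps16, Mrps18a, Mrps25, Mrps26, Mrps33 and Mrps36. Their WT values had a median of 4.61, and those of the 51 members called in DKO a median of 5.53. The highest among the 18 were Mrpl55 (7.39) and Mrpl1 (6.96), whose protein belongs to the family of the mobile L1 stalk. Mrpl58 (5.00) encodes a peptidyl-tRNA hydrolase that became part of the large subunit. Mrps18a (4.54) and Mrps36 (4.40) have proteins known from other places than the small subunit, Mrps18a from the large subunit and Mrps36 from the 2-oxoglutarate dehydrogenase complex.

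The median WT peak was higher at members called in the knockouts than at those not called, as at other genes, although members with low WT peaks such as Mrpl18 (4.01), Mrpl39 (3.99) and Mrps17 (3.57) were called too. The 11 called in KO had a median WT fold enrichment of 6.08 and the other 58 a median of 5.09, while among the other marked genes the medians were 5.58 for those called and 4.63 for those not called. Since the members were higher in WT, all marked genes were divided into 4 bins of equal size by WT fold enrichment, with bounds at 4.08, 4.72 and 5.52. The members fell 9, 13, 16 and 31 into these bins from low to high, so that 44.9% of them stood in the highest bin. In the highest bin KO held 8 of 31 members (25.8%, 13.7 to 43.2) and 18.4% of other genes. In the lower bins it held 1 of 9, 0 of 13 and 2 of 16 members, from low to high, and 1.61%, 6.38% and 9.41% of other genes. DKO held 44.4%, 61.5%, 81.2% and 83.9% of the members from low to high, and 35.3%, 53.8%, 67.5% and 82.2% of the other genes. The members' share lay above that of the other genes in every bin for DKO and in 3 of 4 bins for KO. Each bin's interval for the members held the value of the other genes, except the lowest bin in KO, where it rests on Mrpl18 alone.

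**Figure D3:**
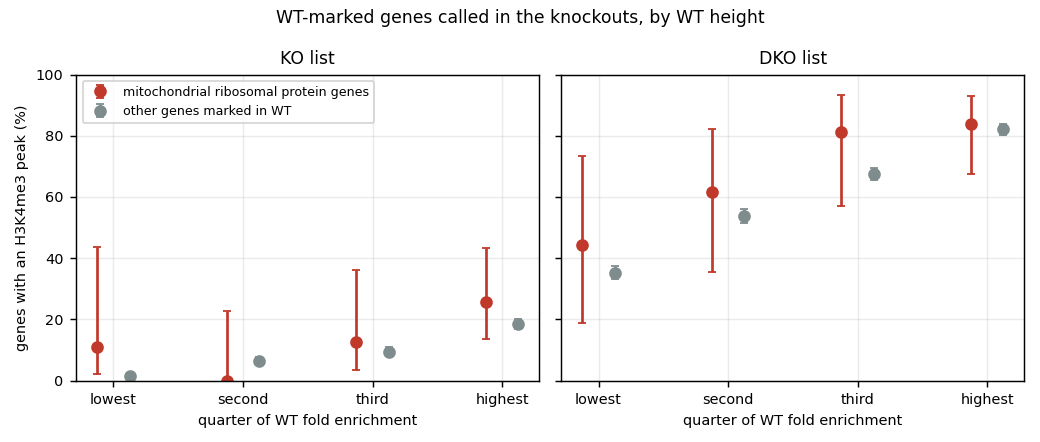
Share of genes marked in WT (vertical axis, percent) that had an H3K4me3 peak in KO (left) and in DKO (right), by bin of WT fold enrichment, for members and other genes, with 95% Wilson intervals. Other genes climb with WT height in both panels, and members do so in DKO. In KO the members stand at 1 of 9, 0 of 13, 2 of 16 and 8 of 31 from low to high. In the highest bin KO holds 25.8% of members and 18.4% of other genes, and DKO 83.9% and 82.2%.

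Many members stood head to head with another gene, that is, with a start on the opposite strand within 1000 bases upstream. This held for 24 of the 69 members with an annotated start (34.8%, 24.6 to 46.6), beside 8.37% of 17422 other genes. Among genes marked in WT it was 24 of 63 members (38.1%, 27.1 to 50.4) and 18.8% of 6269 other genes. The partners included Tcp1, a chaperonin subunit (238 bases from the start of Mrpl18), Psma2, a proteasome subunit (205 from Mrpl32), Hira, a histone H3.3 chaperone (113 from Mrpl40) and Fau, a fusion that yields a cytosolic ribosomal protein (192 from Mrpl49). Several partners are themselves mitochondrial: Twnk, the helicase of mitochondrial DNA (116 from Mrpl43), Ndufb5 of complex I (308 from Mrpl47) and Sars2, the mitochondrial seryl-tRNA synthetase (147 from Mrps12).

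Head-to-head genes were called more often in the knockouts. KO held 5 of 24 head-to-head members (20.8%) and 13.0% of other head-to-head genes, against 5 of 39 remaining members (12.8%) and 8.03% of remaining other genes. DKO held 21 of 24 (87.5%) and 79.7%, against 25 of 39 (64.1%) and 56.1%. Members lay above other genes within each kind, in both lists. These shares rest on 24 and 39 members, no interval was computed for them, and the differences were not tested. A peak at such a promoter may belong to the partner: its summit lay on the member's side in 2 of 5 cases in KO, 12 of 21 in DKO and 12 of 24 in WT. At Mrpl18, Mrpl32 and Mrpl40 the KO summit stood at -675, -549 and -1104 bases from the member's start, on the side of Tcp1, Psma2 and Hira. At Mrpl49 and Mrps5, whose partner is Zfp661, it lay 217 and 360 bases inside the member.

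The peaks mostly sat just inside the genes. Among members with an annotated start the summit lay downstream of it at 7 of 10 in KO, 33 of 46 in DKO (71.7%) and 48 of 61 in WT (78.7%), where the shares of other genes were 79.2%, 72.2% and 76.9%. The median distance from start to summit was 195 bases in KO, 177 in DKO and 206 in WT at members, and 297, 313 and 270 bases at other genes. The peak covered the start itself at 0 of 10 members in KO, 10 of 46 in DKO (21.7%) and 24 of 63 in WT (38.1%), beside 68 of 566, 557 of 4083 (13.6%) and 1562 of 6269 (24.9%) other genes. These positions are those of each gene's highest peak in a list. The highest WT peaks of Mrpl36 and Mrpl58 were not near their starts. That of Mrpl36 lay at the end shared with Ndufs6. That of Mrpl58 lay at the far end of the gene, and the other WT peak of Mrpl58 was not placed. The DKO peak of Mrpl36 was another one, with its summit 455 bases downstream of the start.

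**Figure D4:**
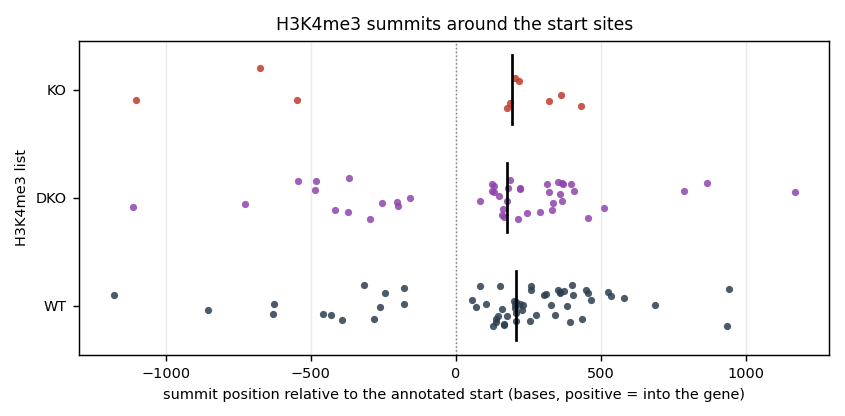
Position of the summit of each member's highest H3K4me3 peak relative to the annotated start (horizontal axis, bases, positive into the gene). Members are shown if that peak lies within 1000 bases of the start, in KO (top), DKO (middle) and WT (bottom). Points are genes, and the black bars are medians, at 195, 177 and 206 bases.

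The 9 members with no WT peak at an end were Mrpl3, Mrpl4, Mrpl22, Mrpl23, Mrpl24, Mrpl54, Mrps2, Mrps23 and Mrps28. Most of the Mrpl proteins among them (Mrpl4, Mrpl22, Mrpl23 and Mrpl24) belong to families that line or surround the exit tunnel for the new peptide. The share of these families among marked members was not counted, and Mrpl4, Mrpl22 and Mrpl24 had a WT peak inside the span. At 4 of the 9 genes the annotated start lies well inside the span and carried the mark there. Mrpl22 starts 1621 bases inside its span and had a peak of 4.20 in DKO and 6.43 in WT within 1000 bases of that start. Mrpl24 starts 1413 bases inside and had 4.08 in DKO and 5.42 in WT. Mrps2, whose start lies 2115 bases inside, had 4.80 in DKO and 4.27 in WT, and Mrps23, with a start 10282 bases inside, had 4.90 and 4.55. None of the 4 had such a peak in KO. Mrpl4 had a WT peak of 4.26 within its span, 1940 bases from the nearer end. Mrpl3, Mrpl23, Mrpl54 and Mrps28 had no WT peak in their spans, and their nearest WT peaks lay between 54040 bases (Mrpl54) and 417833 bases (Mrpl3) away. In DKO a peak lay 1332 bases from an end of Mrpl54, outside the window of 1000 bases. Just inside the window were Mrpl20, Mrps6 and Mrpl45, with WT peaks 778, 888 and 988 bases from an end, and just outside it Mrpl24 and Mrpl22, at 1432 and 1691 bases.

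By origin, KO held 8 of 39 marked members with a bacterial homologue (20.5%, 10.8 to 35.5) and 3 of 30 without (10.0%, 3.46 to 25.6). DKO held 31 of 39 (79.5%, 64.5 to 89.2) and 20 of 30 (66.7%, 48.8 to 80.8). The intervals of both origins overlapped in each list.

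No mitochondrial ribosomal protein gene had a WDR5 or a P53 peak at an end in any list. For WDR5 this was 0 of 78 members in DKO and in WT, in either list of each, which allows a share of up to 3.85%, and 0 of the 69 members marked in WT allows up to 4.35%. The share among other genes marked in WT was 1.12% for a region called in both DKO lists (1.73% for either) and 3.75% for a region called in both WT lists (6.18% for either). The value of 3.75% lies below the limit of 4.35%, so 69 genes are too few to tell the members' share from it, while 6.18% lies above the limit. For P53 it was 0 of 78 in each genotype, where 0.0321% of other protein-coding genes lay at a region of both DKO lists (0.0413% for either) and 0.0688% at a region of both WT lists (0.119% for either). The limit that 0 of 78 allows lies far above these shares.

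The nearest WDR5 peaks in WT lay 6324 bases from Mrps21 (chr3:95855954-95856310, fold enrichment 6.68 in the first list and 6.17 in the second) and 7586 bases from Mrpl35 (4.39, first list only). The nearest in DKO lay 30482 bases from a member. The nearest P53 peak in WT lay 4930 bases from Mrps31 (chr8:22434599-22434972, 6.85 and 6.49 in the lists), and the nearest in DKO lay 65252 bases away. The median distance to a WDR5 peak in WT was 706776 bases over the 78 members.

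Most other genes of mitochondrial translation were marked in WT, and few were called in KO. Of the 5 mitoribosome proteins with other symbols, all 5 were marked in WT, none in KO and 3 in DKO, namely Chchd1, Ptcd3 and Gadd45gip1. Of 11 translation factors found in the annotation, KO held 0 and DKO 7 of the 8 that were marked in WT. Among the 7 were Tufm, the elongation factor that brings the aminoacyl-tRNAs (4.15 in DKO and 5.37 in WT), and Gfm2, which recycles ribosomes (4.78 in DKO and 6.89 in WT). Of 17 mitochondrial tRNA synthetases, 12 were marked in WT, 2 of these in KO (Lars2 and Yars2) and 10 in DKO. Yars2 had 5.36 in KO, 6.81 in DKO and 7.40 in WT. Lars2 had 14.2 in KO, 15.8 in DKO and 18.1 in WT, the highest H3K4me3 value of all genes in each list. It was called with every antibody, WDR5 and P53 in DKO included. Whether its H3K4me3 peaks reflect the mark was not tested, and the counts of tRNA synthetases include it. Of 22 assembly factors, KO held 0 and DKO 11 of the 19 marked in WT. Of 6 mitochondrial transcription genes, 3 were marked in WT, 1 in KO (Tfb2m) and 2 in DKO. Across these 5 lists the marked genes called in KO were few, and every interval held the value of 8.92% of the other marked genes. In DKO every interval likewise held the value of 59.6% of the other marked genes.

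WDR5 peaks were listed at 4 of these genes. In WT, either list held 1 of 11 translation factors, 1 of 17 tRNA synthetases and 2 of 22 assembly factors. Beside them, either WT list held 2.47% of the protein-coding genes other than members, and 6.18% of those marked in WT. No difference from these shares was tested. Noa1, a GTPase of small subunit assembly, had a peak of 5.08 in the first DKO list and of 6.68 and 6.52 in the WT lists. Tfb1m, the methyltransferase of the small ribosomal RNA, had WT peaks of 6.54 and 5.35, none in DKO and no H3K4me3 peak at its ends in WT. Mtrf1l, a release factor, had a peak in the first WT list only (4.86). Lars2, the mitochondrial leucyl-tRNA synthetase, had WDR5 peaks of 32.7 and 30.8 in DKO and of 34.5 and 32.9 in WT, and P53 peaks of 15.8 and 16.2 in DKO and of 12.4 and 12.1 in WT. With both targets deleted in DKO, these peaks are not read as WDR5 or P53.

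**Figure D5:**
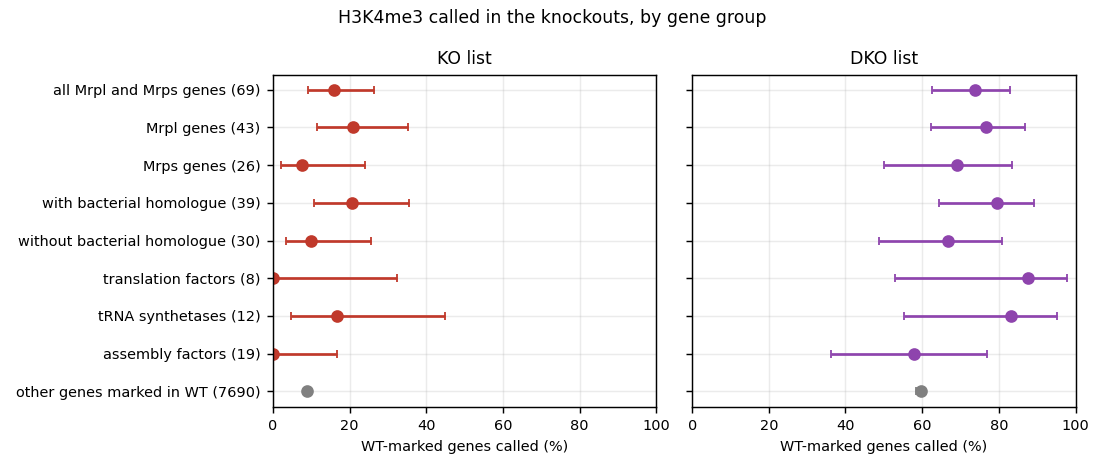
Share of genes marked in WT (horizontal axis, percent) with an H3K4me3 peak in KO (left) and in DKO (right) for all members, for each subunit and origin, for 3 lists of other mitochondrial translation genes and for all other marked genes, with 95% Wilson intervals and the number of marked genes in brackets. All members stand at 15.9% in KO and 73.9% in DKO, and other marked genes at 8.92% and 59.6%.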

How the data were processed

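The headers of the deposited lists name MACS 2.1.2 or 2.1.0.20150731, run with no control sample, a q threshold of 0.01, 10000 bases of local background and no more than 2 copies of a fragment. Bowtie2, SAMtools 1.5, bedtools, HOMER 4.10 and build mm10 are named in the submitters' processing notes, which give no role for them. Pileup, per the file headers, is a coverage signal at the summit in fragments, left unscaled. Fold enrichment, a ratio to local background, and the −log10 p and −log10 q values are the authors' own for each peak. All depend on depth (22.3 M to 57.5 M fragments) and on each library's background, so they rank peaks within a list only.

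Spans were taken from RefSeq's GRCm38.p6 annotation (the mm10 assembly), and start sites with strand from its promoters. The 35 mitochondrial peaks were dropped. A peak counted at a gene when it overlapped by at least 1 base a window of 1000 bases on either side of a span end. A WDR5 or P53 region was an interval called in both lists of its group. The sample titles label the lists of each pair rep1 and rep2, but the lists numbered 2 came from merged alignments. Of their summits, 75.3% (DKO WDR5) to 80.3% (WT P53) lay on the base of a summit of the list numbered 1. In DKO P53 it was 10.6% only, so for that pair the merged alignment alone is the reason. Whether the lists are separate libraries is not known, and each pair was counted as 1 library. Counts have Wilson intervals, and 3 counts set the limit for a count of 0. Genes are not replicates, so no test was made. The overlap counts were tested on simulated peaks with known positions. Members, lists and comparisons were chosen with earlier results of these data known. Genes named with values were the members with a KO H3K4me3 peak, a WDR5 or P53 peak (none), or among the 5 highest or 5 lowest in WT. Members with no WT peak or no DKO peak were named, and further names were chosen after their values were seen. Python 3.11.15, pandas 2.3.3, NumPy 2.4.6 and matplotlib 3.10.9 were used.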

Additional observations from a re-analysis of the deposited data

How the results depend on the processing

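Over 13 settings other than the ones reported, 96 values were recomputed, of which 10 moved and 1 changed sign. The other 85 kept their direction, with counts within 1.5 times the reported count and differences within the counting interval of the reported difference, which is wide. Of the 69 members marked in WT, 34 of 43 were left without genes whose called end is shared with another gene, and 17 with every H3K4me3 list shortened to 918 peaks. The KO count of 11 became 7 with peaks of −log10 q of at least 5, 4 with the top 50% of each list, and 5 both without shared ends and with lists of equal length. Shared ends were judged by span ends only, so Mrpl18 was kept, although its start lies 238 bases from that of Tcp1. The DKO count of 51 became 30 with the top 50%, 22 without shared ends and 10 with lists of equal length. The share of members minus that of other marked genes was 7.02 percentage points in KO (0.189 to 17.4, built from both Wilson intervals). It became 4.14 with the stricter q (-1.35 to 14.0) and 1.06 with the top 50% (-3.41 to 11.1). With lists of equal length it was -0.503 (-16.9 to 23.4, 17 marked members), and it was 4.97 to 7.75 in the rest. The interval also held 0 with a window of 500 bases (-0.8 to 16.3), with summits inside the window (-1.27 to 15.2) and without shared ends (-1.5 to 22.2). In DKO it was 14.3 (2.81 to 23.3), and 6.13 to 18.8 over the settings run. The DKO interval held 0 with the stricter q, with the top 50%, without shared ends and with lists of equal length. The WDR5 and P53 counts stayed 0 when either list was left out. No member had a peak in either list, so this could only give 0. The same holds for the narrower window, the stricter q, the top 50%, summits inside the window and dropped members. Only a wider window or the whole span could raise these counts. Such counts of 0 make up many of the 85 values that kept their direction. With a window of 5000 bases, chosen after seeing the data, P53 in WT had 1 member (Mrps31). Fewer peaks or genes enter most of these settings by construction; the cause of the sign change was not tested. No paired analysis was possible because the results come from no test. Single libraries, their unequal depth and the lack of a control library limit every comparison between genotypes.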

Other observations

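The annotation also holds 6 pseudogenes with Mrpl or Mrps symbols, and none of them had a peak at an end in any list. Several members had more than 1 H3K4me3 peak at their ends: 0 in KO, 12 in DKO and 9 in WT. The members' marks rested on 11 distinct peaks in KO, 62 in DKO and 77 in WT. The YY1 word was in the promoters of 5 of the 10 members called in KO that have a promoter entry (23.7 to 76.3%). It was in 13 of the 63 marked in WT (20.6%, 12.5 to 32.2), a group that includes the 10. The intervals overlapped, and the count was noticed among those of 6 words after the values were seen. Of the 10 promoters, 7 held the SP word, 2 the NRF1 word and 1 the ETS word.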
